A study of Homo sapiens with 47 samples.

Results

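The 140 box C/D small nucleolar RNA (snoRNA) genes described here were taken from a table of RNA-seq counts of human HEK293T cells, and are those whose symbol starts with SNORD, whose annotated biotype is snoRNA and whose raw count was 10 or more in at least 3 of the 6 libraries. They are 140 of the 313 SNORD genes in the table. A further 8 gene entries, those of the independently transcribed SNORD3A, SNORD3B-1, SNORD3B-2, SNORD3C, SNORD3D, SNORD118 and SNORD13, were left out by name, and 165 had lower counts. The members were therefore selected on their measured counts, over all libraries and without regard to genotype, and that they are detected is not a result. The count rule separated SNORD66, with counts of 10, 13, 10, 10, 16 and 22, and SNORD13E, with 13, 18, 12, 13, 9 and 16, from SNORD90, with 4, 9, 7, 10, 8 and 11, and SNORD56B, with 7, 2, 3, 3, 7 and 10 (wild-type libraries 1 to 3, then EAF1-mutant libraries 1 to 3). Of the members, 136 reached 10 counts in all 6 libraries, and 0 entered through the libraries of a single genotype alone.

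Total RNA of HEK293T cells, which derive from human embryonic kidney, was depleted of ribosomal RNA and sequenced in 3 wild-type libraries and 3 libraries of EAF1-mutant cells. The EAF1-mutant cells are a HEK293T line that carries point mutations in EAF1 at the surface by which its product binds Mediator, made by genome editing in both alleles. They represent a single clone, so a difference between the groups can belong to that clone and not to the mutation, which cannot be told apart here. The labels do not say that libraries of a group came from separate cultures. The paper's methods give at least 3 biological replicates for each experiment, and its reporting summary excepts sequencing of chromatin and nascent RNA. Neither says whether a biological replicate was a separate culture. Without a statement on cultures, the p-values measure only the spread between these libraries. Depth was 59137210, 52541541 and 55637032 counts in wild type and 57198018, 53369621 and 66611451 in EAF1-mutant cells.

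Box C/D snoRNAs are short nuclear RNAs that guide 2'-O-methylation, mostly of ribosomal RNA, by pairing with their target beside a conserved box D. Most human ones have no promoter of their own. They lie in introns of host genes, many of them genes of ribosomal proteins or nucleolar proteins, or long non-coding RNAs (lncRNAs) of the SNHG type, and are released from the spliced intron and trimmed by exonucleases up to the bound core proteins FBL, NOP56, NOP58 and SNU13. A snoRNA and its host transcript thus start from the same transcription event and are then processed and degraded separately.

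The members' sequences, read from the GENCODE transcripts of GRCh38, were 64 to 237 nt long with a median of 78 nt, and 121 of them were shorter than a sequencing read of 100 nt. Each of the 140 lay in the genome exactly at its annotated position. The letters TGATGA (box C) occurred within the first 20 nt of 86 members and the letters CTGA (box D) within the last 20 nt of 135, and 84 members held both, or 60% (RNA strand only). Among 132 SNORA genes that passed the same count rule, which belong to the box H/ACA class, 0 held both. Among 35116 promoter stretches of 78 nt 14 did, or 0.0399%. A match is a description of these letters and not of a working box, and a member without a match may carry a variant box. Of the members, 138 had a single identical site in the genome. SNORD62A and SNORD62B, both in PRRC2B on chromosome 9, are identical over 86 nt, so their separate counts are uncertain.

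The sequences below are those of genes to which the comparison between genotypes returns, in DNA letters from 5' to 3' of the RNA, with TGATGA near the start and CTGA near the end in capitals. SNORD17 is shown as the member with the most counts, and it lies in an intron of SNX5 (chr20:17962710-17962946, minus strand).
SNORD17: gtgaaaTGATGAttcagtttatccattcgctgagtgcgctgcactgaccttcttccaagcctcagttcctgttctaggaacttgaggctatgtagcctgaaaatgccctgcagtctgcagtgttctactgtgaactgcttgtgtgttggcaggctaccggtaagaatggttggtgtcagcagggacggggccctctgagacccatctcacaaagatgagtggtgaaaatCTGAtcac
SNORD19, SNORD19B and SNORD19C are shown because they share the host GNL3 on the plus strand of chromosome 3 and fell together (chr3:52689248-52689315, chr3:52690744-52690827 and chr3:52691378-52691453).
SNORD19: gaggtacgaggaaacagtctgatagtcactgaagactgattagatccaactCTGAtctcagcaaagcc
SNORD19B: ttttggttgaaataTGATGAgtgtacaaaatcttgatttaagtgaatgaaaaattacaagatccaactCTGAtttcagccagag
SNORD19C: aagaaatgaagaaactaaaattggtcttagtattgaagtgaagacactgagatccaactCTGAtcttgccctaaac
SNORD18A, SNORD18B and SNORD18C are shown as copies within RPL4 that also fell together (chr15:66503243-66503314, chr15:66502020-66502091 and chr15:66501250-66501318, minus strand).
SNORD18A: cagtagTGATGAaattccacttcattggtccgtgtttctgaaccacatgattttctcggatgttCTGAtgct
SNORD18B: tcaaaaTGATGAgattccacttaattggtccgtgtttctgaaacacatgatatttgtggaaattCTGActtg
SNORD18C: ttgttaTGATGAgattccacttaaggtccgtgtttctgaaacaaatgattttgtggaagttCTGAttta
SNORD58A, SNORD58B and SNORD58C are shown as copies within RPL17 of which only SNORD58B passed the test (chr18:49491283-49491347, chr18:49491664-49491729 and chr18:49489245-49489308, minus strand).
SNORD58A: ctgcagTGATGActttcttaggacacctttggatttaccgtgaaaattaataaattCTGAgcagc
SNORD58B: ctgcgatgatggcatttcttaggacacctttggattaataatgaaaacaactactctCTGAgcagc
SNORD58C: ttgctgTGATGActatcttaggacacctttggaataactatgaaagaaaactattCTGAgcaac
SNORD48 and SNORD52 are shown because they lay lower in EAF1-mutant cells while their lncRNA host SNHG32 lay higher (chr6:31835263-31835326 and chr6:31837076-31837142, plus strand).
SNORD48: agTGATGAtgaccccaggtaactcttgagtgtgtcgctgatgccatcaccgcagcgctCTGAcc
SNORD52: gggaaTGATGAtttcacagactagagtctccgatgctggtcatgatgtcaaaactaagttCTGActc

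Aligned end to end, the SNORD58 copies matched in 78.5% to 80.3% of positions of the longer sequence and the SNORD18 copies in 77.8% to 84.7%. The SNORD19 copies matched in 60.7% to 63.2%. SNORD58B was the copy of its trio without TGATGA. No member of these groups had a second identical site, but counts of such copies remain uncertain, since it is not known here how reads with several map positions were counted.

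By the same-strand gene whose span contains them, 109 members had a protein-coding host, 25 an lncRNA host and 3 the transcribed pseudogene C19orf48P, and SNORD18, SNORD38D and SNORD65C had no host. These were 71 different hosts. An annotated exon of the host overlapped 81 members, and 56 lay in introns alone. The overlapping pair of entries for SNORD38B had almost equal counts, 141, 139, 168, 191, 210 and 238 in the shorter entry and 145, 139, 168, 191, 210 and 239 in the longer, so reads over overlapping genes appear to have been counted for each gene. Counts of a member can therefore include host RNA that spans it, and mature snoRNA and unspliced host RNA cannot be told apart in them.

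Levels differed widely between members. The mean count over the libraries ran from 13.5 to 2466 with a median of 143, and per kilobase of gene the mean level ran from 1.87 to 434 CPM (on library sizes adjusted by TMM) with a median of 31.8. The 5 highest members per kilobase were SNORD49B and SNORD49A in the lncRNA SNHG29, SNORD86 in NOP56, SNORD17 in SNX5 and SNORD26 in the lncRNA SNHG1. SNORD49B had 31.1, 29.0 and 30.3 CPM in the wild-type libraries and 30.9, 33.5 and 32.6 CPM in the EAF1-mutant libraries. These ranges overlap, and SNORD49B did not pass the test (edgeR adjusted p = 0.072, log2 fold change 0.10 with a standard error of 0.05). SNORD49A, its neighbour in the same host, had 16.3, 16.1 and 15.2 CPM in wild-type and 14.6, 14.4 and 14.7 CPM in EAF1-mutant libraries, and SNORD26 had 14.3, 14.3 and 12.9 against 10.8, 11.7 and 11.6 CPM. The groups of SNORD49A and SNORD26 did not overlap, but neither was called, SNORD49A with a log2 fold change of -0.12 (adjusted p = 0.0602) and SNORD26 with -0.28 (adjusted p = 5.31e-04, edgeR), both under the size of 0.5 that a call required. SNORD86 and SNORD17 were lower in each EAF1-mutant library and are described with chromosome 20. Of members with a tested host, 34 of 134 exceeded their host per kilobase of exon, 21 of 25 with lncRNA hosts and 12 of 106 with protein-coding hosts.

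**Figure D1:**
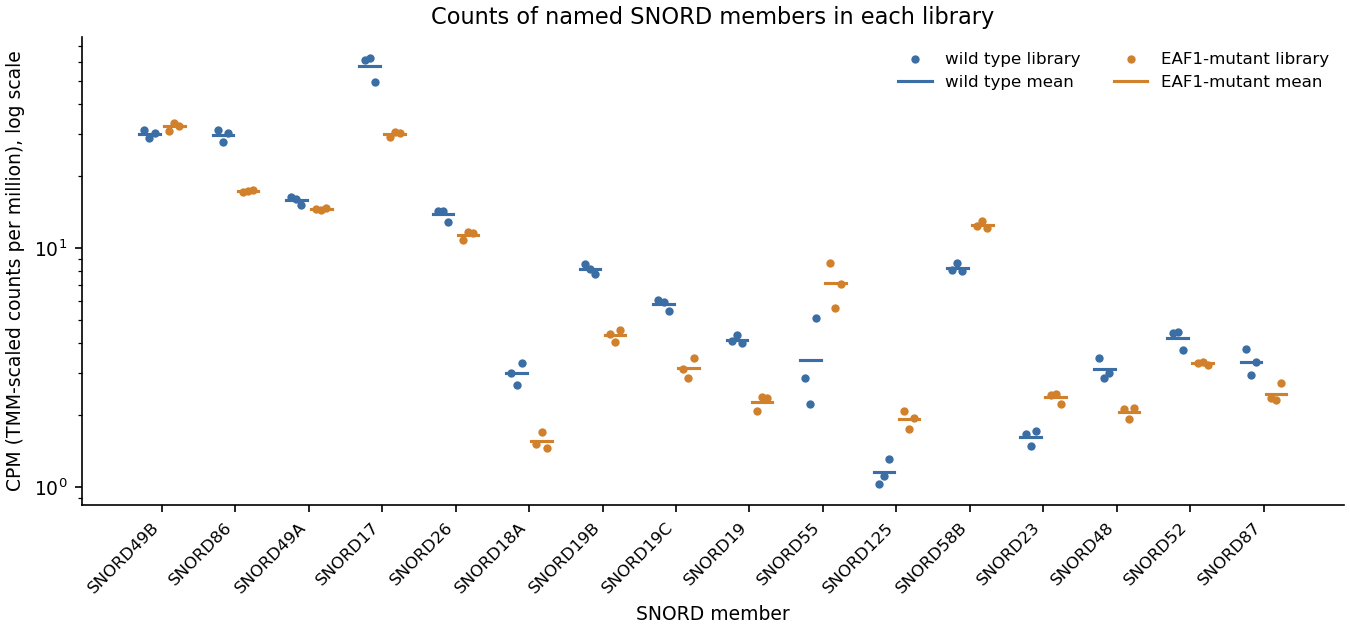
CPM of 16 named SNORD members in each library on a log axis, with 3 wild-type and 3 EAF1-mutant libraries as points and horizontal lines at the group means. SNORD17 lies at 49.6 to 62.5 CPM in wild-type and 29.3 to 30.6 CPM in EAF1-mutant libraries, and SNORD58B at 7.98 to 8.63 and 12.1 to 13 CPM.

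In EAF1-mutant cells, more members were lower than higher. All 140 were tested, and 25 fell and 4 rose, where a call required both an adjusted p below 0.01 in the quasi-likelihood test of edgeR (Benjamini-Hochberg over 28025 genes) and a difference of more than 0.5 on the log2 scale. That is 17.9% lower and 2.86% higher, beside 9.36% lower and 11.0% higher among all tested genes. The median log2 fold change of the members was -0.19, with quartiles of -0.51 and -0.04, and that of all tested genes was 0.01, with quartiles of -0.26 and 0.30. The 3 EAF1-mutant libraries lay below all 3 wild-type libraries in 64 members, or 45.7%, and above them in 12, or 8.57%, beside 28.1% and 29.2% of all tested genes. Set against the wild-type mean, the members' median was -0.18, -0.18 and -0.14 in EAF1-mutant libraries 1, 2 and 3 (log2 of CPM plus 0.5) and 0.01 in each of these for all tested genes. At an adjusted p below 0.05 in that test and with no limit on size, 52 members were lower and 9 higher. Among all tested genes 51.5% passed in either direction, a larger share than among the 140 members. In bulk RNA, fewer cells that express a gene and less of its RNA per cell cannot be told apart.

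The scaling sets where 0 lies. When TMM was replaced by library totals alone, the median of all tested genes moved from 0.01 to 0.13 and that of the members from -0.19 to -0.07, so relative to all tested genes the members lay at -0.20 under both. That scaling called 18 members lower and 4 higher, beside 6.57% and 14.9% of all tested genes, and the share of lower genes among all calls went from 46.1% to 30.6%. As a share of all counts the members held 0.0571%, 0.0552% and 0.0534% in wild-type libraries and 0.0489%, 0.0494% and 0.0497% in EAF1-mutant libraries. The groups did not overlap in this share, also not without SNORD17 (0.0486% to 0.0513% in wild-type and 0.0458% to 0.0466% in EAF1-mutant libraries). Of 32 members with a mean of under 50 counts 1 was lower (3.12%) and 0 higher. Of the other 108 members 24 were lower (22.2%) and 4 higher (3.7%), beside 9.36% and 11.0% of all tested genes at any depth.

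For comparison, the box H/ACA genes (SNORA), which guide pseudouridylation and also lie in introns, were 14 lower and 4 higher of 131 tested, with a median of -0.10. Their shares were 10.7% lower and 3.05% higher, beside 9.36% and 11.0% of all tested genes. Whether the classes differ was not tested.

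The members' changes lay close to those of their hosts. Of the 71 hosts 69 were tested, with 11 lower (15.9%), 1 higher (1.45%) and a median log2 fold change of -0.13, beside 9.36% lower and 11.0% higher of all tested genes. Across the 134 members with a tested host, the log2 fold changes of member and host had a Spearman correlation of 0.687 and a Pearson correlation of 0.713, a description in which members share hosts, libraries and, where exons overlap them, reads. The Spearman value was 0.726 over the 81 members with host exons over them and 0.601 over the 53 without. Members minus host had a median of -0.06, with quartiles of -0.20 and 0.13. Of the 25 members in hosts that fell, 17 fell, with a median of -0.75. Of the 108 in hosts that were not called, 7 fell and 4 rose, with a median of -0.16. Of the 24 members that fell and had a tested host, 23 had a host with a log2 fold change below 0, the exception being SNORD48.

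**Figure D2:**
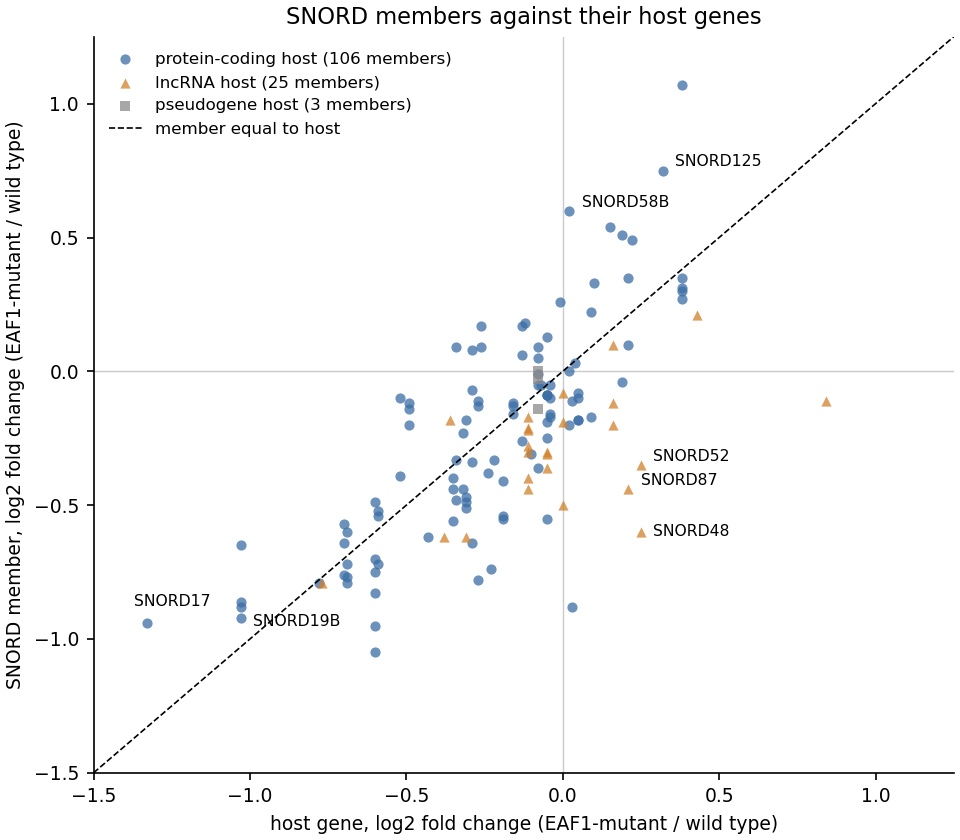
Log2 fold change (EAF1-mutant over wild type) of each of 134 SNORD members against that of its host gene, with symbols for the kind of host and a dashed line where both are equal. Members of the falling hosts GNL3 (-1.03) and SNX5 (-1.33) sit at the lower left, and most members of lncRNA hosts sit below the line.

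Members of lncRNA hosts lay further below their hosts than members of protein-coding hosts. The difference of member minus host had a median of -0.25 over 25 members of 12 lncRNA hosts, 24 of them below 0, and of -0.03 over 106 members of 56 protein-coding hosts, 59 of them below 0. Per library, the median log2 ratio of member to host, relative to the wild-type mean, was 0.00, -0.02 and 0.00 in the wild-type and -0.34, -0.24 and -0.16 in the EAF1-mutant libraries for lncRNA hosts. For protein-coding hosts it was 0.04, 0.01 and -0.04 in wild-type and -0.05, 0.03 and 0.01 in EAF1-mutant libraries. The groups thus separated for lncRNA hosts and overlapped for protein-coding hosts. No test over members was made, and 7 of the 25 members of lncRNA hosts lay in SNHG1. How much host RNA the members' counts hold in each kind of host was not tested. The scaling cancels in these ratios, apart from small shifts of the fit.

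Across chromosomes, 9 of the 25 members that fell lay on the short arms of chromosomes 3 and 20, where 10 members lay in all. Outside these arms 16 of 130 members fell, or 12.3%, with a median of -0.18, beside 7.58% and a median of 0.02 over the 27069 tested genes not on these arms, a split made after the values were seen. Of the 5 members on 3p, 4 fell, with a median of -0.86, and the 731 tested genes of 3p had a median of -0.78, with 64.2% of them lower. Of the 5 members on 20p, 5 fell, with a median of -0.77, and the 225 tested genes of 20p had a median of -0.54, with 46.2% lower. Members on these arms thus moved with the genes around them. EAF1 itself lies on 3p and had 57.5, 58.4 and 56.5 CPM in wild-type and 19.7, 17.9 and 18.8 CPM in EAF1-mutant libraries. Its point mutations leave the RNA countable, so this level does not check the labels. Copy number was not measured, and its part in these values was not tested.

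**Figure D3:**
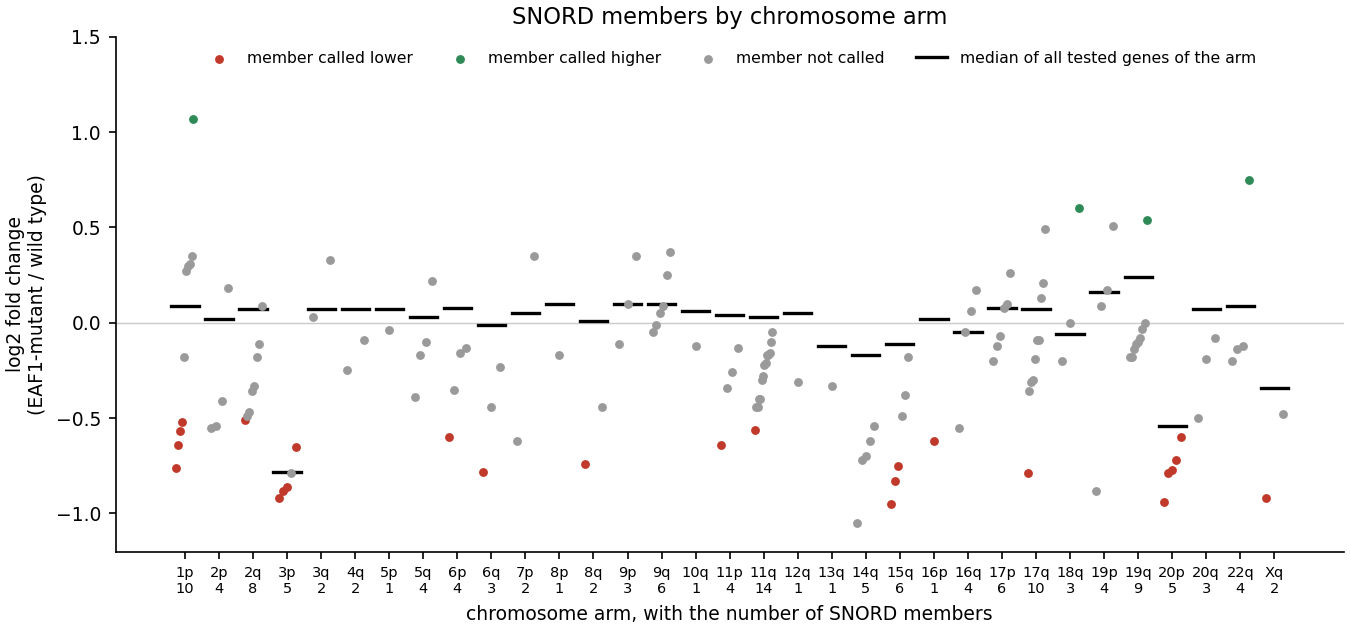
Log2 fold change (EAF1-mutant over wild type) of 140 SNORD members by chromosome arm, coloured by call, with a black bar at the median of all tested genes of the arm. The bars of 3p (-0.78) and 20p (-0.54) lie lowest, and the members there lie near them.

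On 3p, GNL3, which encodes the nucleolar protein nucleostemin, hosts SNORD19, SNORD19B, SNORD19C and SNORD69. SNORD19B had 8.56, 8.19 and 7.81 CPM in wild-type and 4.35, 4.05 and 4.53 CPM in EAF1-mutant libraries. SNORD19C had 6.07, 5.92 and 5.47 against 3.12, 2.86 and 3.46 CPM, and SNORD19 had 4.08, 4.31 and 4.02 against 2.08, 2.37 and 2.36 CPM. All of the EAF1-mutant libraries lay below all of the wild-type libraries in each. The log2 fold changes were -0.92 (standard error 0.08, adjusted p = 1.48e-09), -0.88 (0.10, adjusted p = 5.65e-08) and -0.86 (0.11, adjusted p = 3.73e-07) by edgeR. GNL3 fell from 336 ± 8.19 to 165 ± 5.17 CPM (SD, n = 3; log2 fold change -1.03, adjusted p = 1.83e-16, edgeR), further than each of its 4 members, of which SNORD69 changed least with -0.65. The fifth member on this arm, SNORD38C in DCP1A, had -0.79 at under 30 counts in each library and was not called.

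On 20p, SNORD17, a long box C/D snoRNA in an intron of the sorting nexin gene SNX5, had 61.1, 62.5 and 49.6 CPM in wild-type and 29.3, 30.6 and 30.2 CPM in EAF1-mutant libraries. Wild-type library 3 was the lowest of its group and still above all EAF1-mutant libraries (log2 fold change -0.94 with a standard error of 0.06, edgeR adjusted p = 7.25e-12). SNX5 fell further, with a log2 fold change of -1.33, so SNORD17 relative to its host was 0.39 higher on the log2 scale. SNORD86, in NOP56, had 31.2, 27.9 and 30.3 CPM in wild-type and 17.1, 17.3 and 17.5 CPM in EAF1-mutant libraries, which do not overlap. It fell with a log2 fold change of -0.79 (edgeR adjusted p = 5.47e-12, standard error 0.05). NOP56 encodes a core protein of the box C/D particle and so hosts RNAs of the class that its protein binds. Its members SNORD86, SNORD56, SNORD110 and SNORD57 ranged from -0.79 to -0.60 and each fell, around the -0.69 of the host. SNORD57, at -0.48, was not called with library totals alone.

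On other arms, RPL4 on 15q, a ribosomal protein gene, hosts the SNORD18 copies and SNORD16. SNORD18A had 3.01, 2.67 and 3.31 CPM in wild-type and 1.51, 1.69 and 1.46 CPM in EAF1-mutant libraries, with no overlap, and fell with a log2 fold change of -0.95 (edgeR adjusted p = 1.44e-06, standard error 0.13). SNORD18B and SNORD18C fell with -0.83 and -0.75, and SNORD16 had -0.49, which DESeq2 called at -0.50. RPL4 fell with -0.60, and with -0.49 and no call under library totals alone. The tested genes of 15q had a median of -0.11, so RPL4 and its snoRNAs lay below their arm. RABGGTB on 1p, a subunit of the Rab geranylgeranyl transferase, fell with -0.70, and its members SNORD45A, SNORD45B and SNORD45C fell with values from -0.76 to -0.57, on an arm with a median of 0.09. SNORD45A, at -0.46, was not called with library totals alone. On 14q 5 members in CCNB1IP1, CHD8 and PRPF39 had a median of -0.70 and a range of -1.05 to -0.54. Their counts were under 50 in every library. With all 6 libraries and the filter, 0 were called by edgeR (adjusted p of 0.0158 for SNORD8, the lowest). SNORD8 was called by edgeR with no filter (-1.05) and without wild-type library 2 (-1.35). SNORD127 was called without EAF1-mutant library 3 (-0.99). Of the hosts, CHD8 (-0.60) and PRPF39 (-0.59) fell, though not with library totals alone (-0.49 and -0.47), and CCNB1IP1 had -0.43. The arm had a median of -0.17, with 23.6% of its tested genes lower.

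The 18 hosts with 3 or more members held 67 members, and within a host the members' log2 fold changes spanned a median of 0.23. NOP58 on 2q, another core protein gene, had -0.31 with members from -0.51 to -0.18, and SNORD11 among them fell, though not by DESeq2 (adjusted p = 0.0104) or with library totals alone (-0.39). Nor was SNORD11 called without EAF1-mutant library 2 (-0.43) or wild-type library 2 (-0.47). HSPA8, a chaperone gene on 11q, had -0.35 with members from -0.56 to -0.40, and SNORD14C fell, though not with library totals alone (-0.45). WDR43 on 2p, a gene of ribosome biogenesis, had -0.19 with 3 members from -0.55 to -0.41, of which 0 were called. SNORD53B among them was called at -0.90 without EAF1-mutant library 1. RPL13A (0.05, members -0.18 to -0.08), RPL23A (-0.05, members -0.19 to 0.13) and RPL7A (-0.08, members -0.05 to 0.09), all ribosomal protein genes, and C19orf48P (-0.08, members -0.14 to 0.00) had 0 members called. In RPL3 on 22q the order was turned round, since the host had -0.49 and its members SNORD43, SNORD83A and SNORD83B only -0.20 to -0.12. RPL3 was just under the size of a call, which it passed with DESeq2 at -0.50.

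Among the lncRNA hosts, SNHG1 on 11q had -0.11 and all of its 7 members lay below it, at -0.44 to -0.17. SNHG16 (-0.05, members -0.36 to -0.30), SNHG29 (0.16, members -0.20 to 0.10) and ZFAS1 (0.00, members -0.50 to -0.08) each had 3 of 3 members below the host. None of these 16 members was called by edgeR with all 6 libraries and the filter. SNORD12C in ZFAS1 was called by DESeq2, by edgeR with no filter and in 3 of the fits with a library left out, and a SNORD22 entry was called without wild-type library 3. In 12 of them, or 75%, all EAF1-mutant libraries lay below all wild-type libraries, as in 28.1% of all tested genes.

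**Figure D4:**
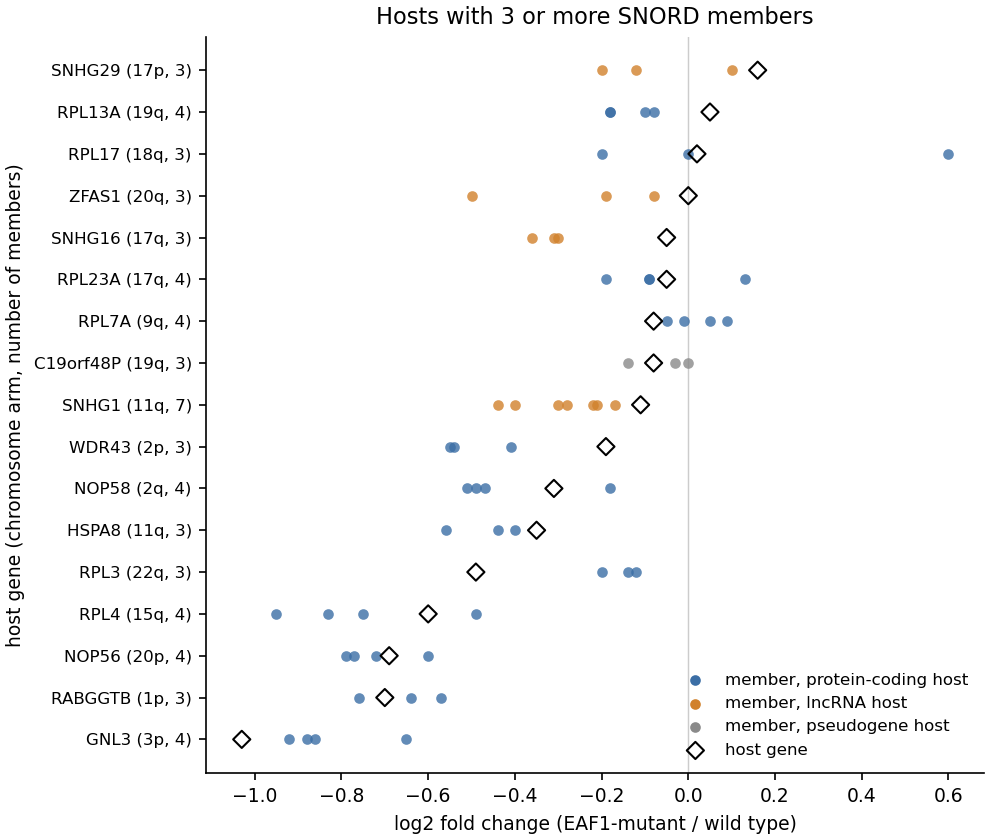
Log2 fold change (EAF1-mutant over wild type) of the members (filled circles) of 17 of the hosts with 3 or more SNORD members and of the host (open diamond), ordered by the host. The circles of SNHG1, SNHG16, SNHG29 and ZFAS1 lie left of the diamond, those of RPL3 and GNL3 right of it, and SNORD58B in RPL17 (0.60) stands apart from the other members of its host.

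Among members with a mean of at least 1 CPM, the 3 furthest below their hosts had lncRNA hosts. SNORD48, in SNHG32 on 6p, had 3.48, 2.87 and 3.01 CPM in wild-type and 2.12, 1.92 and 2.13 CPM in EAF1-mutant libraries, and fell with a log2 fold change of -0.60 (edgeR adjusted p = 2.17e-04, standard error 0.12; -0.49 and no call with library totals alone). SNHG32 had 50.7, 48.0 and 45.6 CPM in wild-type and 58.6, 53.9 and 58.5 CPM in EAF1-mutant libraries, so the groups separated in opposite directions in member and host. The log2 ratio of SNORD48 to SNHG32 was -3.86, -4.06 and -3.92 in wild-type and -4.79, -4.81 and -4.78 in EAF1-mutant libraries. SNORD52 in the same host had 4.40, 4.47 and 3.76 against 3.31, 3.33 and 3.24 CPM, a log2 fold change of -0.35 that is 0.60 below its host. SNORD87, in SNHG6 on 8q, had 3.77, 2.95 and 3.33 against 2.35, 2.32 and 2.71 CPM, a log2 fold change of -0.44 beside 0.21 in SNHG6. The groups of SNORD52 and SNORD87 did not overlap, and neither reached the size of a call with all 6 libraries. SNORD87 was called without EAF1-mutant library 3 (-0.52) and without wild-type library 2 (-0.53).

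Other members that fell were SNORD104 in SNHG25 (-0.79, host -0.77), SNORD54 in RPS20 (-0.74, host -0.23), SNORD14B in RPS13 (-0.64, host -0.29), SNORD60 in SNHG19 (-0.62, host -0.38) and SNORD21 in RPL5 (-0.52, host -0.59). SNORD50B (-0.78) lies in an unnamed protein-coding gene (-0.27) and also within SNHG5, which fell with -0.64. SNORD3E, in TEX11, fell with -0.92 at under 50 counts in each library, while TEX11 had at most 1 count in a library. SNORD3E bears the SNORD3 name of genes that were left out. Among those, an entry of SNORD3D had 88290, 78658 and 70003 counts in wild-type libraries. In EAF1-mutant libraries that entry had 52675, 56383 and 61647 counts. Whether reads of those genes were counted for SNORD3E was not tested. DESeq2 did not call SNORD54 (adjusted p = 0.0193), SNORD21 (adjusted p = 0.0192) or SNORD3E (adjusted p = 0.0623), and with library totals alone SNORD21 and SNORD3E were not called. SNORD3E was also not called with the replicate number as a block, without EAF1-mutant library 2 or 3, or without wild-type library 1 or 2. SNORD54 lost its call without EAF1-mutant library 3 or wild-type library 1, and SNORD21 without library 2 of either group. SNORD14B was not called without wild-type library 1 (-0.50).

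The members that rose were SNORD55, SNORD125, SNORD58B and SNORD23. SNORD58B had 8.12, 8.63 and 7.98 CPM in wild-type and 12.4, 13 and 12.1 CPM in EAF1-mutant libraries. Replicates lay close together and the groups far apart (log2 fold change 0.60 with a standard error of 0.06, edgeR adjusted p = 3.02e-08). The other copies in the same host did not follow it, with 3.52, 3.66 and 3.38 against 3.32, 3.38 and 3.84 CPM in SNORD58A and 3.18, 2.89 and 2.56 against 2.54, 2.39 and 2.61 CPM in SNORD58C, and both pairs of groups overlapped. RPL17, a ribosomal protein gene on 18q, had 460 ± 1.76 and 465 ± 9.30 CPM (SD, n = 3), a log2 fold change of 0.02.

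SNORD55 had 2.85, 2.22 and 5.08 CPM in wild-type and 8.70, 5.59 and 7.04 CPM in EAF1-mutant libraries. Wild-type library 3 came close to EAF1-mutant library 2, and the spread within groups was the widest among the risen members (log2 fold change 1.07 with a standard error of 0.18, edgeR adjusted p = 2.97e-05). DESeq2 gave 1.06 with an adjusted p of 0.0217, which is not a call. SNORD125, in an intron of AP1B1 on 22q, a gene of clathrin adaptor complexes, had 1.03, 1.11 and 1.31 against 2.08, 1.74 and 1.95 CPM (log2 fold change 0.75 with a standard error of 0.15, edgeR adjusted p = 1.78e-04). SNORD23, in NOP53 on 19q, a gene of ribosome assembly, had 1.66, 1.48 and 1.72 against 2.43, 2.45 and 2.23 CPM (0.54, standard error 0.13, adjusted p = 0.00114, edgeR). The groups of both did not overlap. SNORD23 was not called by DESeq2 (adjusted p = 0.0105) or without wild-type library 2 (log2 fold change 0.47). Relative to their hosts, SNORD58B lay 0.59 higher, and SNORD125 and SNORD82 lay 0.43 higher each. SNORD82, in NCL, which encodes nucleolin, had 1.04, 1.37 and 1.18 against 1.26, 1.12 and 1.40 CPM, which overlap, while NCL had a log2 fold change of -0.34.

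The clusters of tandem copies gave almost no counts. The table holds 9 SNORD113 and 30 SNORD114 genes of the imprinted cluster on 14q, and 50 SNORD115 and 33 SNORD116 genes, most of them in the imprinted cluster on 15q within SNHG14, and 0 of them passed the count rule. SNORD113 genes had 1 count in all, that of SNORD113-9. SNORD114 genes summed to 4, 1 and 3 counts in wild-type and 1, 2 and 6 in EAF1-mutant libraries, with SNORD114-3 (9 counts over all libraries) and SNORD114-31 (4) highest. SNORD115 genes summed to 2, 4 and 0 against 5, 4 and 1 counts and SNORD116 genes to 1, 5 and 5 against 4, 10 and 6. Of these, 13 of 16 SNORD115 counts came from a copy on chromosome 10, and 3 of 31 SNORD116 counts from the numbered genes on 15q. A difference between genotypes was not detectable at this depth. On 14q, MEG3 and MEG8 had at most 8 counts in a library. SNHG14 had 607, 600 and 620 counts in wild-type and 368, 281 and 409 in EAF1-mutant libraries and fell (log2 fold change -0.99, adjusted p = 1.86e-10, edgeR), while the numbered SNORD115 and SNORD116 genes on 15q had 3 counts each over all libraries.

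Of 26 genes of box C/D particle assembly, trimming and transport, a list of core proteins, assembly factors, processing enzymes and transport factors, 3 fell and 0 rose (edgeR; DESeq2 also called 3), or 11.5% lower beside 9.36% of all tested genes. With library totals alone 2 fell and 1 rose. Among the core proteins, NOP56 fell, and FBL, the methyltransferase, had 111, 111 and 119 CPM in wild-type and 87.2, 89.6 and 91.6 CPM in EAF1-mutant libraries, a log2 fold change of -0.35. NOP58 had -0.31 and SNU13 -0.18, and the groups of these core proteins did not overlap. Among the assembly factors, ZNHIT6 had 60.2, 64.2 and 65.4 against 41.0, 38.7 and 41.0 CPM and fell with -0.65 (adjusted p = 9.72e-12, edgeR). Among the processing enzymes, XRN2, a nuclear 5' to 3' exonuclease on 20p, had 178, 180 and 175 against 120, 116 and 120 CPM and fell with -0.58 (adjusted p = 2.45e-12, edgeR; -0.47 and no call with library totals alone). EXOSC10, the nuclear exosome's 3' to 5' exonuclease, had a log2 fold change of 0.40, and with library totals alone it was called higher at 0.51.

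The markers of the cell line were present in both groups, though not at equal levels. Of 10 HEK293T genes 9 had a mean of at least 1 CPM, with PAX2 below it, and they summed to 795, 811 and 821 CPM in wild-type and 629, 614 and 626 CPM in EAF1-mutant libraries. VIM, the most abundant, and NEFM fell (log2 fold changes -0.93 and -1.31), and KRT8 and KRT18 rose (1.38 and 0.82; edgeR). Of 4 blood genes 0 reached 1 CPM, and their sum was at most 0.277 CPM in a library. The 5 genes of colon lines summed to between 44.1 and 47.4 CPM in every library, nearly all from VIL1 and CDX2, with CDX1, LGALS4 and KRT20 near 0. The 4 fibroblast genes summed to 4.40 to 6.00 CPM, with COL1A1 highest and higher in EAF1-mutant cells, and COL3A1 and LUM lower. The part of these differences in the members' values was not tested.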

How the data were processed

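Ribosomal RNA-depleted total RNA was sequenced as stranded 100 bp paired-end reads from 3 wild-type and 3 EAF1-mutant HEK293T libraries. The authors trimmed reads (Trim Galore in their methods, Trimmomatic 0.38 in the submitters' processing notes), aligned them by HISAT2 to GRCh38 and, after Rsubread had assigned reads to genes of Ensembl GRCh38.p13, deposited raw counts. How strand, overlapping genes and multi-mapped reads were treated was not stated in the sources. Symbols, biotypes, positions and hosts came from GENCODE v44, which held 57754 of 58395 genes; the 641 others held 2.81% of counts.

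From the deposited counts, log2 fold changes and quasi-likelihood tests were computed for the 28025 genes kept by filterByExpr, using TMM factors in edgeR 4.0.16 under R 4.3.3, with a biological coefficient of variation of 4.11%. Calls needed an adjusted p below 0.01 together with a log2 difference of more than 0.5 either way, as in the paper's methods. A host was the same-strand gene containing the member, protein-coding before lncRNA before others, then the shortest. DESeq2 1.42.0, library totals, other filters, membership limits, a replicate block and left-out libraries were alternatives. blastn 2.17.0 counted identical genome sites. Counts were also simulated for this comparison with a common dispersion for all genes, and 27916 genes were tested. The changed genes had a mean of 50 counts or more. The test called 99 of 100 changes of 0.75, 100 of 100 changes of 1 and 1 of 27716 unchanged genes. Smaller changes, changes at lower counts and genes of wider spread were not simulated.

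Named were the 5 members highest per kilobase, the 5 largest falls and the rises among called members of at least 1 CPM without overlap, hosts of 3 or more members, the 3 members furthest above and below their host, the tandem clusters, members next to the count limit and called particle genes. Members and lists were chosen with earlier results of these data known. ELL ChIP-seq, PRO-seq, 4C-seq and biotinylation data were not used here.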

Additional observations from a re-analysis of the deposited data

How the results depend on the processing

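Calls were few at low depth, and 3 libraries a group, from a single mutant line, limit what the spread covers. Counts do not part mature snoRNA from host RNA, and how reads matching several SNORD copies were counted is not known here.

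The 25 members lower and 4 higher became 23 and 2 with DESeq2, 18 and 4 with library totals alone and 24 and 4 with the replicate number as a replicate block. All tested genes were 7.05% lower and 7.38% higher with DESeq2, 6.57% and 14.9% with library totals alone and 9.39% and 10.9% under that block. The replicate numbers did not pair the libraries, since deviations of same-numbered libraries correlated at -0.00537, -0.0166 and 0.00974. Leaving out each library in turn gave 22 to 29 lower and 3 to 5 higher. Among all tested genes these fits gave 8.69% to 9.24% lower and 9.63% to 10.1% higher. An adjusted p under 0.05 with no limit on the fold change gave 52 and 9, beside 51.5% of all tested genes in either direction. The median of -0.19 was -0.07 with library totals alone and -0.26 to -0.20 with a library left out. Restrictions chosen after seeing the data were members outside 3p and 20p, with 16 of 130 lower, 4 higher and a median of -0.18, and members with no host exon over them, with 8 of 56 lower (14.3%), 1 higher (1.79%) and a median of -0.26, beside 9.36% lower and 11.0% higher of all tested genes.

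The difference from the host, -0.06, was -0.23 for non-coding hosts, -0.07 under the replicate block and -0.08 to -0.03 with a library left out. The mutant share of counts, 0.893 of the wild-type share, was 0.93 without SNORD17 and 0.878 to 0.908 with a library left out. The 3 called particle genes, all lower, were the same 3 under the replicate block, and with library totals alone they were 2 lower and 1 higher (EXOSC10, without XRN2). Among the 41 genes picked by the naming rule and 410 values under alternatives, 0 changed sign from a call, 6 lost a call (RPL4, SNORD23, SNORD48, SNORD55 and XRN2) and 6 gained one (RPL3 and SNORD87). Over all members, 18 of the 29 calls held under these alternatives and 11 were lost in at least 1 (SNORD3E, SNORD11, SNORD21, SNORD54, SNORD14B, SNORD14C, SNORD23, SNORD45A, SNORD48, SNORD55 and SNORD57). A further 11 member symbols were called in at least 1 alternative, among them SNORD16, SNORD12C and SNORD8. The causes of these changes were not tested.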
